A study of Mus musculus with 8 samples.

Results

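Serine, one-carbon, proline and asparagine synthesis is described here through 10 genes, Asns, Phgdh, Psat1, Psph, Shmt2, Mthfd2, Mthfd1l, Pycr1, Aldh18a1 and Pck2, which code for amino acid and mitochondrial one-carbon enzymes linked to the transcription factor ATF4. They were chosen by name, found in the count table by their gene identifiers, and are 10 of the 52636 genes in it. The members and the lists below were chosen with earlier results of these data known. How many of them rose or fell is therefore no independent evidence. All 10 had enough counts to be among the 17378 genes tested. RNAseq was performed on S0 cells of the E12.5 mouse fetal liver, the earliest erythroid precursors that the FACS scheme separates, which are negative for CD71, Ter119 and a cocktail of lineage markers. There were 4 WT libraries, labelled wild type, and 4 DKO libraries, from embryos that lack both Vps13a and Vps13c, on a C57BL/6J background. In the DKO, an exon of Vps13a had been removed in the whole body with a β-actin-Cre transgene, and Vps13c was knocked out as well (Vps13c-/-). The DKO embryos came from intercrosses of Vps13a+/-/Vps13c-/- parents, a cross that cannot give wild-type embryos, so that litter and genotype cannot be told apart. Whether each library was a single embryo is not stated, so the spread between libraries may in part be technical.

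In these pathways, the phosphorylated pathway of PHGDH, PSAT1 and PSPH makes serine from a glycolytic intermediate. SHMT2, MTHFD2 and MTHFD1L then pass the one-carbon unit of serine through mitochondrial folates to formate, which purine and thymidylate synthesis use. ALDH18A1 and PYCR1 make proline from glutamate, ASNS makes asparagine from aspartate and glutamine, and PCK2 makes phosphoenolpyruvate in mitochondria. Many of these genes are known targets of ATF4, a transcription factor whose translation increases when a kinase phosphorylates the initiation factor eIF2α, and which binds, with a C/EBP partner, the C/EBP-ATF response element.

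The promoters of 3 of the 10 genes held the core of that element, and they are shown because all 3 belong to genes that rose in DKO. The letters searched for were TGATGNAA on both strands, from 250 bases before to 50 bases after each RefSeq start on GRCm38.p6, where all 10 genes had a window. The matches of Asns (minus strand, chr6:7693214-7693243), Pycr1 (minus strand, chr11:120643833-120643862) and Pck2 (plus strand, chr14:55540152-55540181) are given in the direction of the gene, with the matching letters in capitals and 11 bases on each side.
Asns: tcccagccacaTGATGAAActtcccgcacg
Pycr1: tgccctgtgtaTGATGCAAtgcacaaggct
Pck2: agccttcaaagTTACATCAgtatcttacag
In Pck2 the match is on the opposite strand. The capitals begin 23 bases before the RefSeq start of Asns, and 103 bases before the start in both Pycr1 and Pck2. The Asns match lies inside the gene as GENCODE bounds it, since the GENCODE gene begins upstream of that RefSeq start. The same letters were in 1219 of 27025 genes with a window (4.51%) and in 324 of the 11707 tested genes with one (2.77%). The share was 3.16% of the genes higher in DKO and 2.48% of those lower in DKO. In the list of ATF4 regulators and other targets described below, it was 9 of 23 genes with a window (39.1%). The members were themselves picked as linked to ATF4, so matches among them are no independent evidence. Mthfd2, the remaining member that rose, had no match in its window, nor had any of the 6 members that were not called. The cAMP response element TGACGTCA, a palindrome, was in no member's window and in 2.03% of all genes. A match of letters does not show that a factor binds.

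Libraries held between 42114489 and 50886469 counts in WT and between 36981439 and 42587815 in DKO. Values below are normalized counts (counts divided by the effective size of the library and multiplied by the mean of those sizes, after TMM scaling), unless stated otherwise, and a gene is said to have risen or fallen where edgeR's quasi-likelihood test gave an adjusted p under 0.05. Vps13a was lower in DKO, at 794 ± 194 against 1943 ± 130 in WT (SD, 4 libraries each; edgeR adjusted p = 0.00247). Vps13c was not called (edgeR adjusted p = 0.182) and does not check the labels. The erythroid regulators Klf1 (12312 ± 1724 normalized counts in WT) and Gata1 (8818 ± 1020) were abundant and were not called, and 2 of 12 erythroid markers rose (1 to 4 when a library was left out). Of 8 progenitor markers 5 fell, but 3 without WT replicate 1, 2 or 4, and of 7 neutrophil markers tested 4 fell, a count that became 1 when WT replicate 4 was left out and 2 when WT replicate 1 or 2, or DKO replicate 2, 3 or 4, was. With a covariate for Y-linked transcripts, edgeR called 1 progenitor marker lower (4 at an unadjusted p under 0.05), no neutrophil marker lower (none unadjusted), no erythroid marker higher (3 unadjusted) and 2 mesenchymal markers higher. Hepatoblast genes were abundant as well, although the cells were sorted: the 10 markers summed to between 15766 and 21421 CPM (counts scaled to library size) in WT and between 4654 and 18054 in DKO, lowest in DKO replicate 3. None of the 10 was called with edgeR, while 5 were lower at an unadjusted p under 0.05 and 5 were called lower by DESeq2. With edgeR, 4 were called lower without DKO replicate 2, 5 without DKO replicate 3 and all 10 with the covariate for Y-linked transcripts. The 8 mesenchymal markers summed to between 49.6 and 133 CPM in WT and between 295 and 1018 in DKO, highest in DKO replicate 1, and 7 of them rose. All 4 WT libraries and DKO replicate 3 held Y-linked transcripts and DKO replicates 1, 2 and 4 did not, so that the sex of the embryos differed between the groups. With the covariate, the genotype effect therefore rests on DKO replicate 3, a single library and the one with the lowest sum of hepatoblast markers. Histone genes took between 0.0478% and 0.0526% of the counts in WT and between 0.102% and 0.117% in DKO. Mitochondrially encoded genes took between 1.57% and 1.74% of the counts in WT and between 2.33% and 2.97% in DKO, and the part of these differences in the results was not tested. In bulk RNA, a change in the share of a cell type and a change of RNA per cell cannot be told apart.

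Of the 10 members, Asns, Mthfd2, Pycr1 and Pck2 rose in DKO, by 1.78-fold to 2.86-fold, and none fell. Of all genes tested, 10.7% rose and 10.8% fell. Mthfd2, Pycr1 and Pck2 also had a log2 fold change above 1, which 6.19% of all genes reached together with the adjusted p. The enzymes of serine synthesis itself, Phgdh, Psat1 and Psph, were not called. The 4 genes that rose stand at different places: the last step of proline synthesis, the mitochondrial folate dehydrogenase, asparagine synthesis and phosphoenolpyruvate. In each of the 4, the lowest DKO value exceeded the highest WT value, an order found in 13.5% of all genes tested. In 1 member, Mthfd1l, the highest DKO value was under the lowest WT value. The share of all genes tested with that order is not given here, so this is a description. In the other 5 members the groups overlapped. With edgeR, 1 member was lower at an unadjusted p under 0.05 (Mthfd1l), and DESeq2 called no member lower. The median log2 fold change was 0.29 for the members and 0.03 for all genes tested. In all genes, 1867 were higher and 1878 lower, a share of 49.9% higher, which became 66.7% (2492 and 1242) with upper-quartile scaling, when the median log2 fold change of all genes rose by 0.108. The 4 members stayed called under that scaling.

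**Figure D1:**
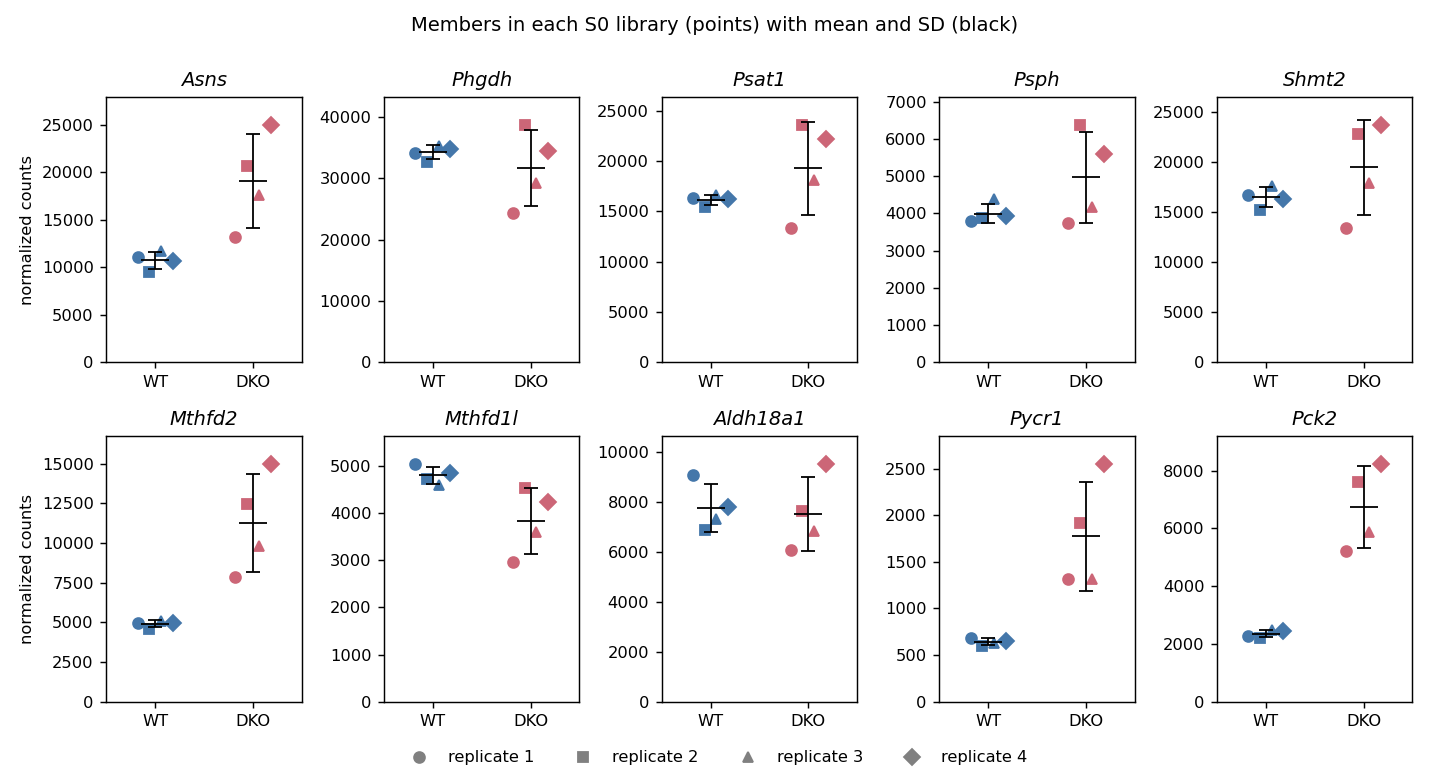
Normalized counts of the 10 members in each S0 library (vertical axes, from 0), with WT in blue and DKO in red; the shape of a point gives the replicate, the wide black bar the mean and the thin bar the SD of 4 libraries. All DKO points stand above all WT points for Asns, Mthfd2, Pycr1 and Pck2, and below them for Mthfd1l, and the DKO points are more spread than the WT points in every panel.

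Pck2 (chromosome 14, 55540266 to 55551242, plus strand of GRCm38), the mitochondrial form of phosphoenolpyruvate carboxykinase, had 2282, 2210, 2489 and 2446 normalized counts in WT replicates 1 to 4. It had 5219, 7624, 5893 and 8217 in DKO replicates 1 to 4. The lowest DKO library was well above the highest WT library. The mean went from 2357 ± 132 to 6738 ± 1413 (SD, n = 4 each), and the log2 fold change was 1.52 (SE 0.14, edgeR adjusted p = 0.000575). By its p it was number 40 of all genes tested and number 34 of those higher in DKO. The exact two-sided permutation test gave p = 0.0286, the smallest that 4 against 4 allow, as it did for the other members whose groups did not overlap.

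Pycr1 (chromosome 11, 120635712 to 120643769, minus strand), the mitochondrial reductase that completes proline, had 688, 598, 632 and 647 normalized counts in WT. In DKO it had 1318, 1918, 1312 and 2544. DKO replicate 4 was the highest, and replicates 1 and 3 were nearly alike and still above all WT libraries. The log2 fold change was 1.47 (SE 0.21, edgeR adjusted p = 0.00327), or 2.76-fold. Aldh18a1 (chromosome 19, 40550257 to 40588463, minus strand), which codes for the enzyme of the first steps from glutamate, did not share this. It had 9089, 6887, 7329 and 7812 normalized counts in the WT libraries and 6082, 7636, 6842 and 9520 in the DKO libraries, and the groups overlapped fully. Its log2 fold change was -0.05 with a 95% interval from -0.37 to 0.27 (edgeR adjusted p = 0.841), and the sign turned with upper-quartile scaling.

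Mthfd2 (chromosome 6, 83305691 to 83325908, minus strand), the mitochondrial methylenetetrahydrofolate dehydrogenase and cyclohydrolase, had 4970, 4581, 5084 and 4981 normalized counts in WT. In DKO it had 7850, 12464, 9832 and 14965. The WT libraries lay close together, and the DKO libraries were all higher and differed among themselves. The log2 fold change was 1.20 (SE 0.17, edgeR adjusted p = 0.00336), or 2.30-fold. Shmt2 (chromosome 10, 127517123 to 127522444, minus strand), the mitochondrial serine hydroxymethyltransferase that precedes it, had 16766, 15249, 17673 and 16325 normalized counts in the WT libraries and 13424, 22825, 17945 and 23709 in the DKO libraries. DKO replicate 1 was below all WT libraries and the other DKO libraries were above them. The log2 fold change of Shmt2 was 0.24 with a 95% interval from -0.12 to 0.60 (edgeR adjusted p = 0.322).

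Mthfd1l (chromosome 10, 3973118 to 4167081, plus strand), which releases formate from mitochondrial formyltetrahydrofolate, was the member with the lowest log2 fold change. It had 5029, 4715, 4591 and 4848 normalized counts in the WT libraries and 2970, 4521, 3587 and 4241 in the DKO libraries. The DKO values were all under the WT values, by little in DKO replicate 2 (exact permutation test, p = 0.0286). The log2 fold change was -0.32 (95% interval -0.60 to -0.04), and the edgeR adjusted p of 0.0931 missed the threshold. Without DKO replicate 2, Mthfd1l was called lower in DKO.

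Asns (chromosome 6, 7675169 to 7693254, minus strand), asparagine synthetase, had 11107, 9547, 11688 and 10690 normalized counts in WT. In DKO it had 13205, 20703, 17558 and 24958. DKO replicate 1 was only slightly above the highest WT library, and DKO replicate 4 was the highest. The mean went from 10758 ± 905 to 19106 ± 4967 (SD, n = 4 each), and the log2 fold change was 0.83 (SE 0.17, edgeR adjusted p = 0.0110).

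Among the serine synthesis genes, Phgdh (chromosome 3, 98313170 to 98339990, minus strand), the enzyme of the committed step, had 34172, 32676, 35328 and 34869 normalized counts in WT. It had 24437, 38705, 29200 and 34451 in DKO, on both sides of the WT range, with a log2 fold change of -0.11 (95% interval -0.40 to 0.18, edgeR adjusted p = 0.576). Psat1 (chromosome 19, 15904678 to 15947337, minus strand), the aminotransferase of the pathway, had 16307, 15463, 16592 and 16179 in WT and 13295, 23552, 18103 and 22196 in DKO. DKO replicate 1 alone was below WT, and the log2 fold change was 0.26 (95% interval -0.09 to 0.61, edgeR adjusted p = 0.270). Psph (chromosome 5, 129765558 to 129787449, minus strand), the phosphatase that yields serine, had 3807, 3862, 4376 and 3930 in WT and 3751, 6368, 4158 and 5603 in DKO. Psph had a log2 difference of 0.32 (95% interval -0.04 to 0.67, edgeR adjusted p = 0.184). Without DKO replicate 1, Psat1, Psph and Shmt2 were called higher as well, which made 7 members.

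**Figure D2:**
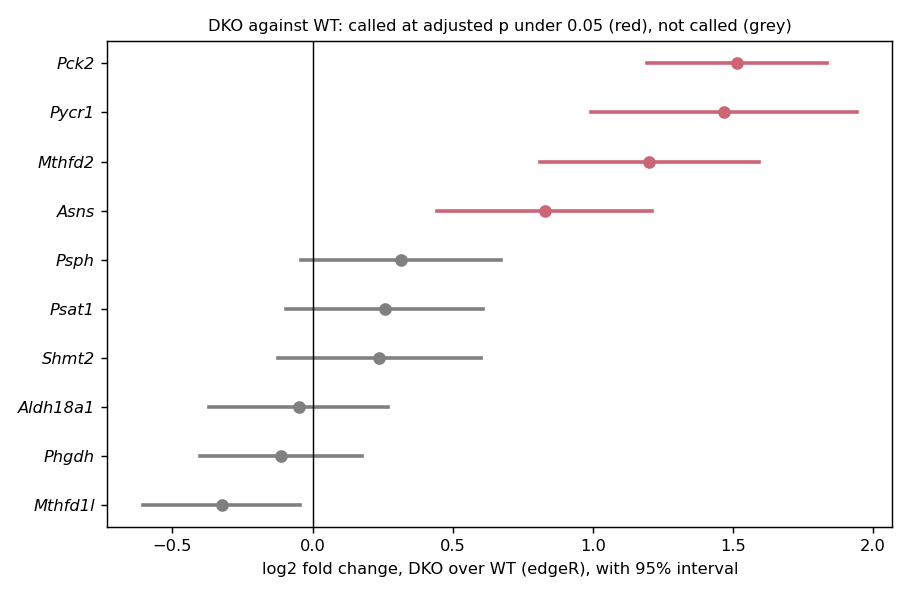
Log2 fold change of each member, DKO over WT, from edgeR's quasi-likelihood fit (horizontal axis), with points for the estimates and lines for the 95% intervals; red marks an adjusted p under 0.05. Pck2, Pycr1, Mthfd2 and Asns stand from 1.52 down to 0.83, with intervals above 0, and the interval of Mthfd1l from -0.60 to -0.04 lies below 0 although its adjusted p was 0.0931.

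Levels between genes were compared per kilobase of the protein-coding transcript with the longest coding part and scaled to library size, an RPKM value. On that scale (RPKM) Phgdh was the highest member in WT (412 ± 13.9, SD, n = 4), followed by Shmt2 (164 ± 10.02), Psat1 (140 ± 4.18) and Asns (122 ± 10.2). Mthfd2 (53.6 ± 2.42), Psph (52.5 ± 3.41) and Aldh18a1 (50.2 ± 6.14) formed a group whose neighbours lay within their SDs. Mthfd1l (29.6 ± 1.16), Pck2 (15.8 ± 0.886) and Pycr1 (5.01 ± 0.291) were the lowest. In WT, the members that were called in DKO thus included the lowest pair of the 10. In DKO, Phgdh was still the highest (381 ± 74.7), Asns (216 ± 56.1) stood above Shmt2 (194 ± 47.4) by less than the SD of either, and Psat1 (168 ± 40.2) and Mthfd2 (123 ± 33.9) came next. Psph stood at 65.3 ± 16.1 and Mthfd1l at 23.7 ± 4.28. Pck2 (45.1 ± 9.47) was near Aldh18a1 (48.6 ± 9.53), and Pycr1 (13.9 ± 4.59) remained the lowest. Exons of Psph share 452 bases with Cct6a on the opposite strand, a gene with 29512 normalized counts in WT, and exons of Shmt2 share 32 bases with Ndufa4l2, and those of Pck2 share 53 of 7806 with Gm10876, also on the opposite strand. Whether reads were counted by strand is not given in the sources used here, so the values of Psph are uncertain, as are those of Shmt2 and Pck2 to the extent of these shared bases.

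The DKO libraries differed more among themselves than the WT libraries in every member, with a coefficient of variation from 18.1% to 33.1% in DKO and from 2.98% to 12.2% in WT. DKO replicate 1 was the lowest DKO library in 9 of the 10 members, against 29.8% of all genes tested. DKO replicate 4 was the highest in 6 members and DKO replicate 2 in the other 4. The median over the members of the log2 ratio to the WT mean was -0.18 in DKO replicate 1, 0.61 in replicate 2, 0.14 in replicate 3 and 0.51 in replicate 4. DKO replicate 1 also had the highest sums of mesenchymal and neural markers (neural: 78.2 CPM, against 12.9 to 16.6 in the other DKO libraries and 3.66 to 6.39 in WT), whose part in the result was not tested. After the mean of each genotype was removed from the log2 values, all 45 pairs of members were correlated above 0.5 over the 8 libraries (median r = 0.891, range 0.570 to 0.981). Of all pairs of genes tested, 15.96% were above 0.5, with a median of -0.003. The libraries share depth, sex and cell makeup across genes, so these values are a description. For the members they rest mostly on the 4 DKO libraries, whose spread was larger.

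**Figure D3:**
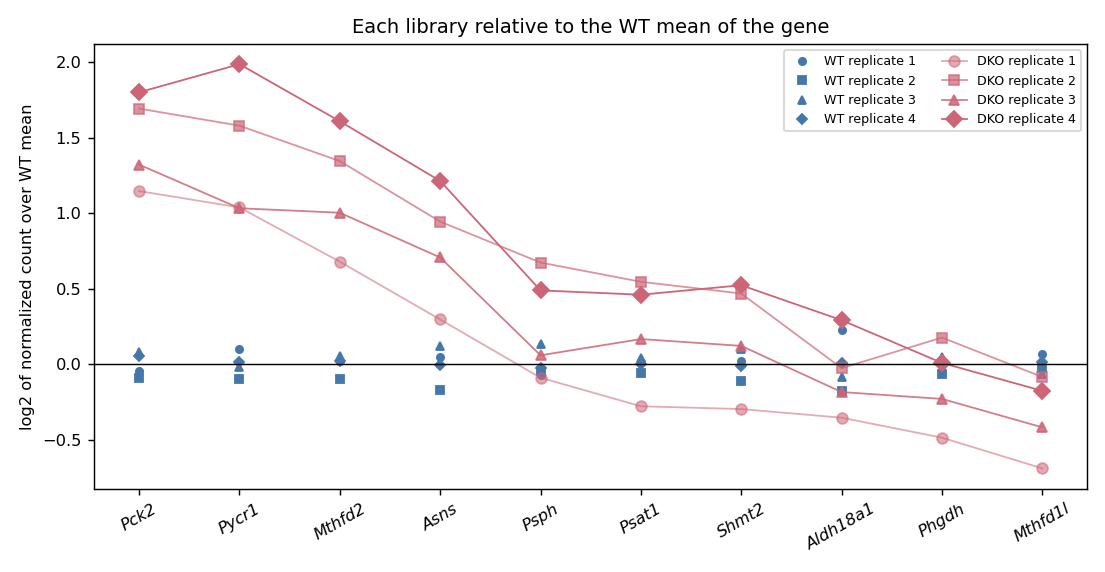
Log2 of the normalized count in each library over the mean of the 4 WT libraries (vertical axis) for the 10 members, ordered by their log2 fold change (horizontal axis); blue points are WT and red points joined by lines are DKO libraries. The DKO lines cross, as DKO replicate 4 is the highest in 6 members and DKO replicate 2 in the other 4. DKO replicate 1 is the lowest in all members but Pycr1, and all DKO libraries lie above 0 only for Pck2, Pycr1, Mthfd2 and Asns.

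Sex moved with these results. DKO replicate 3, with Y-linked transcripts as in WT, can be set beside the WT libraries, but it is a single library. Its cell makeup also differed, with 4654 CPM of hepatoblast markers (15766 to 21421 in WT) and 323 CPM of mesenchymal markers (49.6 to 133 in WT). It had 2.50 times the WT mean for Pck2, 2.05 times for Pycr1, 2.005 times for Mthfd2 and 1.63 times for Asns, each above all 4 WT libraries. With a covariate for Y-linked transcripts, under which the genotype effect rests on that library, Pck2 alone was called (log2 fold change 1.32, edgeR adjusted p = 0.00947). The log2 fold changes of Mthfd2, Pycr1 and Asns were then 1.0035 (adjusted p = 0.0533), 1.03 (0.0620) and 0.71 (0.148). Over the 8 fits that each left out a library, the 4 members stayed called, with a log2 fold change from 1.41 to 1.62 for Pck2, from 1.25 to 1.59 for Pycr1, from 1.04 to 1.34 for Mthfd2 and from 0.68 to 0.97 for Asns.

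Ratios of counts within a library do not depend on how libraries are scaled, and they show how far the enzymes of a pathway moved apart. These pairs of members were picked once their values were known, and they are given with no test. For each count of Shmt2 there were between 0.288 and 0.305 counts of Mthfd2 in WT and between 0.546 and 0.631 in DKO. For each count of Mthfd1l, the enzyme after it, there were between 0.972 and 1.11 counts of Mthfd2 in WT and between 2.64 and 3.53 in DKO. For each count of Aldh18a1 there were between 0.0757 and 0.0869 counts of Pycr1 in WT and between 0.192 and 0.267 in DKO. Even DKO replicate 1, the lowest for most members, stood apart from WT in these 3 ratios. Psat1 to Phgdh differed less, with a ratio between 0.464 and 0.477 in WT and between 0.544 and 0.644 in DKO. Psph to Psat1 overlapped between the groups (log2 difference 0.06).

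Several reactions of the members have another enzyme that runs them elsewhere in the cell or in parallel, and 6 such pairs were tested as log2 ratios within a library with exact two-sided permutation tests. Pycr1 to Pycr3, the cytosolic reductase, was higher in each DKO library than in any WT library, by 1.39 (SE 0.25, p = 0.0286, or 0.0857 adjusted over the 6 pairs, exact permutation test). The log2 fold change was 0.04 for Pycr3 itself (adjusted p = 0.869, edgeR). The smallest p of 0.0286 cannot pass the adjustment over 6 pairs unless most pairs reach it.

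The cytosolic counterparts Shmt1 and Mthfd1 fell. Shmt1 went from 8204 ± 836 to 5885 ± 789 normalized counts (SD, n = 4 each; log2 fold change -0.48, edgeR adjusted p = 0.0178) and Mthfd1, the cytosolic enzyme with 3 folate activities, from 12865 ± 906 to 8757 ± 1425 (-0.56, adjusted p = 0.0130). The ratio of Shmt2 to Shmt1 differed by 0.69 on the log2 scale (SE 0.23, exact permutation test, p = 0.0571), with DKO replicate 1 inside the WT range. Mthfd1l to Mthfd1 differed by 0.23 (SE 0.11, exact permutation test, p = 0.0857). Mthfd2 to Mthfd2l, its close relative in mitochondria, differed by 0.95 (SE 0.42, exact permutation test, p = 0.114), and the log2 fold change of Mthfd2l was 0.26 (adjusted p = 0.537, edgeR). Pck1, the cytosolic form beside Pck2, was under the filter on low counts, and no ratio is read from it.

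**Figure D4:**
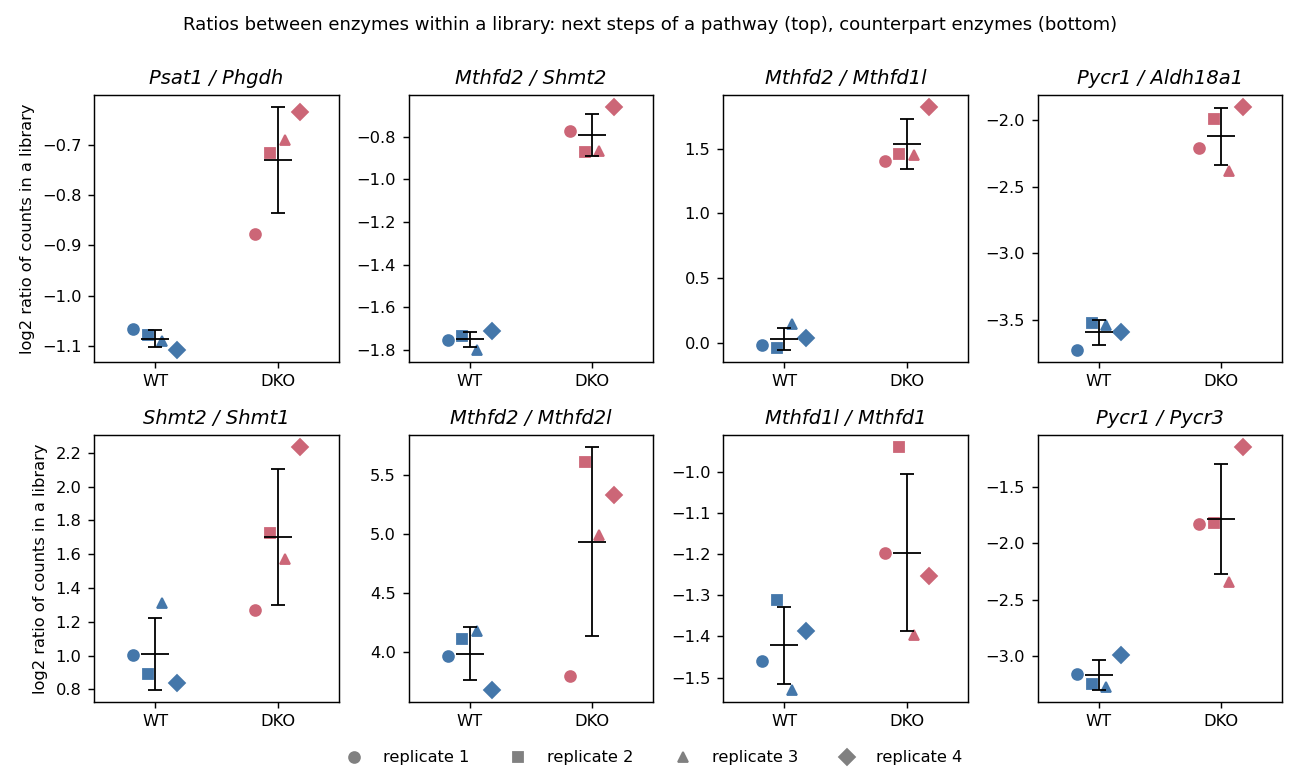
Log2 ratio of the counts of 2 genes in the same library (vertical axes, which differ between panels and do not start at 0), with members of the same pathway above and a member with its counterpart enzyme below; shapes give the replicate, the wide black bar the mean and the thin bar the SD of 4 libraries. The groups are apart in the 4 upper panels and for Pycr1 to Pycr3, and overlap for Shmt2 to Shmt1, Mthfd2 to Mthfd2l and Mthfd1l to Mthfd1.

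The other genes of these pathways are given as lists. Their counts stand beside all genes tested, of which 10.7% rose and 10.8% fell. No list was tested against these shares. Of 19 genes of folate and one-carbon metabolism, 4 fell and none rose with edgeR (1 was higher at an unadjusted p under 0.05, and DESeq2 called 1 higher and 6 lower), with a median log2 fold change of -0.25. The count called lower was 1 when WT replicate 1 or 4 was left out or the covariate for Y-linked transcripts was used, and 2 when WT replicate 2 or 3, or DKO replicate 4, was left out. With DKO replicate 3 left out it was 6. Those that fell were Mthfd1, Atic (12636 ± 579 to 9376 ± 1233 normalized counts), which completes the purine ring with formyl groups, Aldh1l1 (742 ± 120 to 359 ± 130), which oxidizes cytosolic formyltetrahydrofolate, and Mtrr (1675 ± 54.0 to 1281 ± 144), which reactivates methionine synthase. Aldh1l2, the mitochondrial counterpart of Aldh1l1, had 0, 21.5, 16.5 and 0 normalized counts in the WT libraries and 107, 54.6, 134 and 126 in the DKO libraries, with an edgeR adjusted p of 0.0528. Tyms, the thymidylate synthase, had a log2 difference of -0.02 (adjusted p = 0.897, edgeR).

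Of 15 genes of serine and glycine metabolism tested, 2 rose and 3 fell, with a median of -0.28. Without WT replicate 1, and with the covariate for Y-linked transcripts, edgeR called no gene of this list higher (2 were higher at an unadjusted p under 0.05 in both fits). Without WT replicate 2 or 4, 1 was called higher and 1 lower, without WT replicate 3, 1 higher and 4 lower, and DESeq2 called 3 higher and 5 lower. Cth, the cystathionine lyase that yields cysteine, rose from 1198 ± 230 to 3142 ± 1447 normalized counts (log2 fold change 1.39, edgeR adjusted p = 0.0164), with DKO replicate 3 (1427) inside the WT range. Sdsl, a serine dehydratase relative, rose from 40.3 ± 8.80 to 105 ± 24.5 (adjusted p = 0.0235). Glyctk, a glycerate kinase, fell from 1378 ± 274 to 464 ± 183 (adjusted p = 0.00750), and Sptlc1, a subunit of the serine palmitoyltransferase, from 1529 ± 99.3 to 1136 ± 96.8 (adjusted p = 0.0187). Shmt1 was the other gene that fell.

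Of 8 genes of proline and ornithine metabolism tested, edgeR called 1 lower and none higher (none higher at an unadjusted p under 0.05 or with DESeq2): Arg1, an arginase, with 169 ± 40.4 and 36.0 ± 19.9 normalized counts. Of 14 genes around aspartate, asparagine and glutamine, Bcat1, a cytosolic branched-chain aminotransferase, rose from 168 ± 45.3 to 627 ± 106 (log2 fold change 1.90, edgeR adjusted p = 0.00264). Got2, the mitochondrial aspartate aminotransferase, fell from 18233 ± 673 to 11657 ± 1477 (-0.65, adjusted p = 0.00347), and Ass1, which joins aspartate to citrulline, from 9074 ± 883 to 6469 ± 774 (adjusted p = 0.0144). Of 10 genes around phosphoenolpyruvate, edgeR called Acly, the ATP citrate lyase, lower (15353 ± 1645 to 8201 ± 1384) and none higher, as did DESeq2, which called 2 lower, and none was higher at an unadjusted p under 0.05. Without DKO replicate 1, 1 gene of the proline list was called higher, and with the covariate for Y-linked transcripts 3 were called lower. The aspartate list had 2 genes called higher without DKO replicate 1 or 3, and the phosphoenolpyruvate list 2 called lower without DKO replicate 4. The median log2 fold changes of these 3 lists were -0.14, 0.02 and -0.10. The first turned to 0.0254 with the covariate and the last to 0.00189 with upper-quartile scaling, and the second changed sign under 4 of 17 alternatives.

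Of 28 regulators and other targets of ATF4, 19 rose and 1 fell, with a median log2 fold change of 1.05. Like the members and the other lists, this list was drawn up with results of these data known, so its count is no independent evidence. Atf4 itself had 5163, 5283, 4841 and 4126 normalized counts in the WT libraries and 7532, 12064, 9306 and 12276 in the DKO libraries. Its order in DKO, with replicate 1 lowest and replicate 4 highest, was that of Pck2, Mthfd2 and Asns. It was also that of Shmt2 and Aldh18a1, which were not called. The log2 fold change of Atf4 was 1.08 (SE 0.16, edgeR adjusted p = 0.00346). By p, the other leading genes were the cationic amino acid transporter Slc7a3 (78.1 ± 27.1 to 1377 ± 550 normalized counts), the pseudokinase Trib3 (146 ± 15.5 to 4543 ± 3525), the cystine transporter Slc7a11 (22.02 ± 11.8 to 375 ± 119), the stress protein Nupr1 (183 ± 59.3 to 2710 ± 1929), Ddit4, an inhibitor of mTORC1 signalling (214 ± 52.4 to 2542 ± 1790), and Atf4. The gene that fell was Wars, a tryptophanyl-tRNA synthetase (log2 fold change -0.45, edgeR adjusted p = 0.0186). Without WT replicate 1, 13 of the 28 were called higher with edgeR and none lower (1 at an unadjusted p under 0.05). With the covariate for Y-linked transcripts, 6 of the 28 were called higher and none lower with edgeR, and none was lower at an unadjusted p under 0.05.

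Of the 4 kinases of eIF2α, Eif2ak1, the heme-regulated kinase, fell from 5871 ± 433 to 4260 ± 477 normalized counts (log2 fold change -0.46, edgeR adjusted p = 0.0121), and none rose (1 was higher at an unadjusted p under 0.05, and DESeq2 called none higher). Without DKO replicate 4, 1 kinase was called higher. With the covariate for Y-linked transcripts, edgeR called none of the 4 in either direction, nor was any past an unadjusted p of 0.05. RNA levels do not measure the activity of a kinase. Of 20 proliferation genes, 15 fell with edgeR, with a median of -0.39, and 10 fell with upper-quartile scaling. The count was 7 when WT replicate 1 or 4 was left out, 9 when WT replicate 2 or DKO replicate 4 was, and 1 with the covariate for Y-linked transcripts. By p they were led by the mitotic checkpoint kinase Bub1b (6093 ± 424 to 3610 ± 400 normalized counts), the replication helicase subunit Mcm6 (23487 ± 916 to 14946 ± 1744), the mitotic motor Kif11, the kinase Aurkb, Mcm3 and the kinase Plk1.

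**Figure D5:**
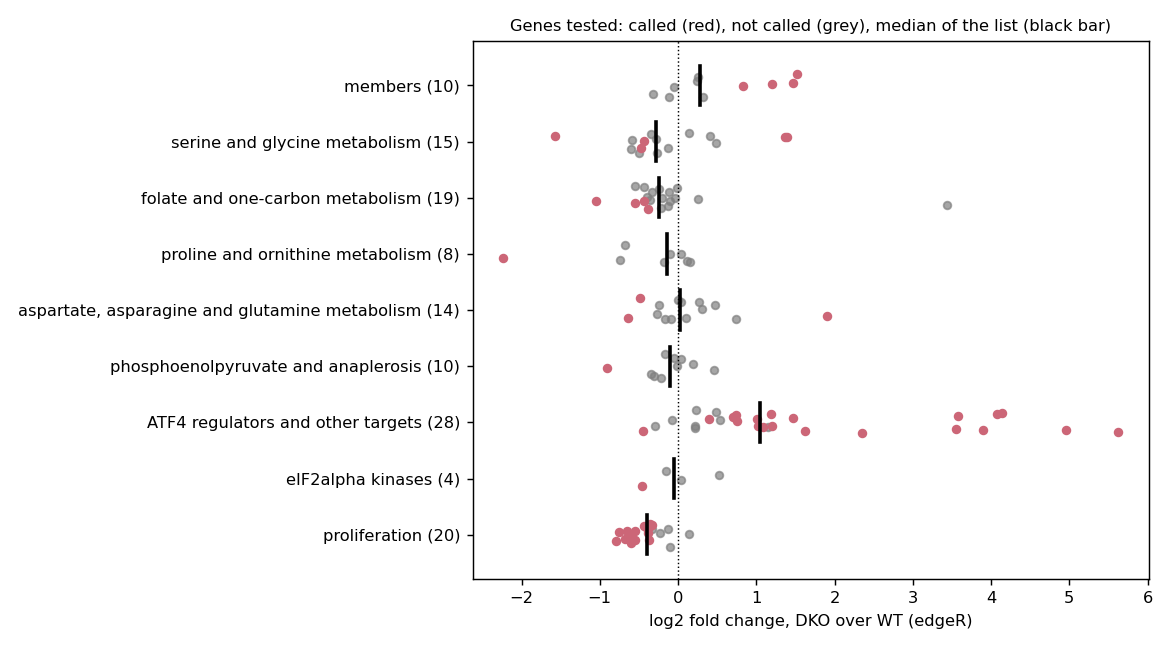
Log2 fold change, DKO over WT, of each tested gene (points) in the members and in the 8 lists, with the number tested in parentheses; red points have an edgeR adjusted p under 0.05, the black bar is the median and the vertical scatter has no meaning. The median lies at 0.29 for the members and 1.05 for the ATF4 list, and at or below 0.02 for the other 7 lists.

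The genes outside the set whose profile over the 8 libraries was closest to the mean profile of the members were Pim1 (Pearson r = 0.981), a serine/threonine kinase, Yars (0.969), a tyrosyl-tRNA synthetase, Ghitm (0.965), a mitochondrial membrane protein, Ugt1a6a (0.964), a glucuronosyltransferase, and Ctsz (0.953), a lysosomal protease. None of these 5 was called between DKO and WT by edgeR, with log2 fold changes from 0.24 (Yars) to 0.65 (Ugt1a6a).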

How the data were processed

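S0 cells of WT and DKO fetal livers were compared by RNAseq, with 4 libraries of each genotype. The authors made libraries by template switching, trimmed the reads (per the submitters' notes, fastp 0.21.0), mapped them to mm10 (HISAT2 2.2.1), removed alignments of low quality and deposited counts per gene from StringTie 1.3.3b and its prepDE script. These whole-number counts had not been normalized. Because prepDE derives counts from coverage, totals can differ from read numbers. Groups and replicates came from the sample labels. Identifiers were matched to GENCODE M21 symbols without version (52489 of 52636).

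The analysis used edgeR 4.0.16 in R 4.3.3: filterByExpr, TMM, the robust quasi-likelihood test without covariates and Benjamini-Hochberg adjustment over the 17378 genes tested. Single values were compared with exact two-sided permutation tests of log2 CPM or log2 ratios (0.5 counts added) over 70 arrangements. Alternatives were DESeq2 1.42.0, other scalings and filters, a replicate block, a covariate for Y-linked transcripts and each library left out. The fit was tested on simulated data. Promoter windows came from RefSeq, and lengths from GENCODE.

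Named were the members, their counterpart enzymes and called genes of each list (up to 6 by smallest p). Also named were Atf4, the kinase Eif2ak1 and the 5 genes with the most similar profile. The other eIF2α kinases were counted but not named. Tyms, Aldh1l2 and Wars were added once their values were known. A counterpart enzyme is not reported here. The members and the lists were chosen with earlier results of these data known. Within a genotype, libraries differed beyond counting error (chi-square per gene of at least 18.1), so none was a copy of another.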

Additional observations from a re-analysis of the deposited data

How the results depend on the processing

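Of the members, Asns, Mthfd2 and Pycr1 kept their call in 16 of 17 alternatives and Pck2 in all 17; the exception was the covariate for Y-linked transcripts, which left 1 member higher in DKO, 1 past both thresholds, and 476 genes higher and 618 lower. DESeq2 called 4 members higher and 0 lower, with 3 past both thresholds, among 2744 genes higher and 2629 lower. Upper-quartile scaling gave 2492 genes higher and 1242 lower, and turned the log2 fold change of Aldh18a1 from -0.05 to 0.0598. The replicate numbers did not pair the samples (correlations of same-numbered libraries from -0.07 to 0.04), and a replicate block gave 1026 genes higher and 1083 lower and the same counts of members, with 1 folate gene and 7 proliferation genes lower. With each library left out in turn, genes higher ranged from 858 (without WT replicate 1) to 1915 (without DKO replicate 1), genes lower from 898 to 2012 (without the same libraries), members higher from 4 to 7, members lower from 0 to 1, and the log2 fold change of Aldh18a1 from -0.1788 to 0.0436. The causes were not tested.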
